A study of Mus musculus with 21 samples.

Results

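The genes described here are the mouse kinesin and dynein motor genes, taken by symbol from the deposited count table: the numbered Kif genes, the kinesin light chain genes Klc1 to Klc4, and the cytoplasmic dynein genes of the Dync1 and Dync2 families. The rule gave 47 of the 24263 symbols, made up of 36 kinesin genes, 4 light chain genes and 7 dynein genes. By textbook role 24 were placed with the transport motors, 11 with the mitotic kinesins and 12 with ciliary and other members. The rule uses symbols and no expression value, though it was set with earlier results of these data known. They were read in 21 RNA-seq libraries, 3 for each of 7 groups, from 2 mouse cell lines.

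The first line was 1C11NE, the neuron-like derivative of 1C11 stem cells of strain 129. All 1C11NE groups had been differentiated for 12 days with dibutyryl cAMP, dimethyl sulfoxide and 1-methyl-1-cyclohexanecarboxylic acid, in DMEM with serum. The second was BV2, an immortalised microglial line of strain C57BL/6 kept in DMEM/F12 with serum. Acrylamide, an electrophilic monomer known as a neurotoxicant, was used at 1 mM. Exposures lasted 24 h. The PBS group was 1C11NE with phosphate-buffered saline as vehicle, and the ACR group was 1C11NE with acrylamide. The PBS-CM group was 1C11NE given the conditioned medium of BV2 cells that had received vehicle, and PBS-CM+ACR was 1C11NE in that medium with acrylamide added. The ACR-CM group was 1C11NE in medium conditioned by acrylamide-treated BV2 cells, and whether acrylamide was removed from it is not stated. BV2_PBS and BV2_ACR were BV2 cells with vehicle or acrylamide. Nothing states that the 3 libraries of a group came from separate cultures, so p-values measure the spread between these libraries, which may be technical.

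Kinesins and cytoplasmic dynein are motor proteins that walk along microtubules by hydrolysing ATP. Most transport kinesins move cargo toward the plus ends at the cell periphery, dynein moves cargo back toward the cell centre, and in neurons the long axon makes both directions essential. Mitotic kinesins build and position the spindle and complete cell division, and their genes are known to be switched on in dividing cells. Kinesins have been proposed as protein targets of acrylamide, which forms adducts with cysteine residues. The libraries measure RNA, so motor protein and motor activity were not measured here.

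Promoters of 4 genes the results turn on are shown because the mitotic kinesins shared letters that the symbol rule did not use. RefSeq sequences of build GRCm38.p6, from 250 bases before to 50 bases after each start site, were matched for 38 of the 47 genes. Some genes have several start sites, so there were 43 promoters in all, 10 for 10 mitotic kinesins and 21 for 18 transport genes, and the counts that follow are of promoters. The cell cycle genes homology region (CHR), searched as TTTGAA or TTTAAA on both strands, was found in 9 of the 10 mitotic promoters (90.0%), in 2 of the 21 transport promoters (9.52%) and in 27.6% of all 32851 promoters. CCAAT, a box bound by NF-Y in many cell cycle promoters and searched on both strands, was found in 6 of the 10 mitotic promoters (60.0%), in 6 of the 21 transport promoters (28.6%) and in 37.4% of all promoters. E2F cores, searched as TTTGGCGC, TTTCGCGC, TTTCCCGC or TTTGCCGC on both strands, were found in 2 of the 10 mitotic promoters, 1 of the 21 transport promoters and 2.26% of all promoters. TGACNNNGC, the core of the antioxidant response element, was searched because acrylamide is an electrophile. It was found in 0 of the 10 mitotic promoters, 2 of the 21 transport promoters (those of Dync1li1 and Kif17) and 12.4% of all promoters. None of these motifs contains another. A match here describes the letters in this window and is not evidence of binding. In the sequences below, capitals mark CHR or CCAAT matches on either strand.
Kif2c, a microtubule depolymerase, chr4:117178723-117179022, minus strand: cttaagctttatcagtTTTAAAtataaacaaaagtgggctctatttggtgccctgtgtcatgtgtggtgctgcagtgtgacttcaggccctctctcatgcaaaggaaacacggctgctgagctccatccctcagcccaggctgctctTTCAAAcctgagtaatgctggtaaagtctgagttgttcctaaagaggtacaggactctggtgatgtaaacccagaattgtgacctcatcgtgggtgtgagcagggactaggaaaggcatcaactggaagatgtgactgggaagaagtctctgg
Kif23, a subunit of centralspindlin, chr9:61946750-61947049, minus strand: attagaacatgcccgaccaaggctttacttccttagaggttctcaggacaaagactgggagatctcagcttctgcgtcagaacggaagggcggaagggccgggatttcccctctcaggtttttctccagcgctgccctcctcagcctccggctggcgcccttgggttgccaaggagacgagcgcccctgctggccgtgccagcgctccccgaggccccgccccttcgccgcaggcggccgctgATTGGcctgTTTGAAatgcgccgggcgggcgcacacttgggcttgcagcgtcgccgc
Kif20b, a kinesin of cytokinesis, chr19:34922108-34922407, plus strand: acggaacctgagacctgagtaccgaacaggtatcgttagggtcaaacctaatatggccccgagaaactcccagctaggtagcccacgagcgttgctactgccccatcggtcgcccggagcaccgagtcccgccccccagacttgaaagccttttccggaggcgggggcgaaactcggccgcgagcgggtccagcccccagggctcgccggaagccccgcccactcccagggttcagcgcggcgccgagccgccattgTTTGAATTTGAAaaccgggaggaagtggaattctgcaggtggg
Kif26a, an atypical kinesin shown as the contrast with no match, chr12:112145958-112146257, plus strand: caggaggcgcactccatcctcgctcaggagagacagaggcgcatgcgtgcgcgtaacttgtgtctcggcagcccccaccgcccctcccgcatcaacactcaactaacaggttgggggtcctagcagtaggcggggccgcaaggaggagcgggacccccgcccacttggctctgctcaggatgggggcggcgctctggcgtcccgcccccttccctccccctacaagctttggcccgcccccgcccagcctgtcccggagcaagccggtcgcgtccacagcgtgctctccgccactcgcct
Kif2c held CHR matches far upstream of the start site used, and Kif23 and Kif20b held them just after theirs. Among the 10 mitotic kinesins searched only Kif18a held no CHR match. Kif20a had no matched promoter and was not searched. The RefSeq spans of Kif2c (chr4:117159633-117182624) and Kif26a (chr12:112143974-112181747) reach upstream of the windows shown. The start sites used for these genes therefore lie inside their spans, and sequence at the upstream ends of those spans was not searched.

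Expression is given in CPM, counts divided by library size, with factors from the trimmed mean of M-values method (TMM), computed within each line unless stated. Total counts ran from 2762287 to 7391991 per library, of which the 47 genes took 0.173 to 0.250% in 1C11NE and 0.0558 to 0.0902% in BV2. The 9 listed neuronal markers among the deposited symbols summed to between 10.6 and 19.2 CPM in 1C11NE libraries. Th and Dbh were not among those symbols. In 1C11NE Map2 lay between 6.13 and 12.2 CPM and Tubb3 between 2.24 and 6.50 CPM, and both were at 0 in BV2. Snap25, Syt1, Stmn2 and Nefl were at or near 0 in 1C11NE. The 12 markers of cycling cells summed to between 1464 and 2185 CPM in 1C11NE. The labelled neuronal identity was therefore only weakly visible in RNA, and the cells held abundant mitotic transcripts. Microglia markers summed to between 4462 and 5760 CPM in BV2 libraries and between 7.02 and 27.9 CPM in 1C11NE. Replicate 1 of PBS-CM and replicate 3 of PBS-CM+ACR stood apart from the other libraries in conditioned medium on the first principal component, where they lay beside the PBS and ACR libraries, so counts in conditioned medium are also given without them. In bulk libraries fewer cells of a type and less RNA per cell cannot be told apart.

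In vehicle-treated 1C11NE the motor genes were led, per kilobase of exon and on a scale common to both lines, by Kif7, Dync1li2 and Kif5b. Kif7, a regulator of Hedgehog signalling in the primary cilium, stood at 47.0 ± 3.84 CPM per kb (SD, n = 3). Dync1li2, a light intermediate chain that links dynein to cargo, stood at 35.2 ± 5.88 CPM per kb, and Kif5b, the widely expressed heavy chain of conventional kinesin, at 32.5 ± 2.36 CPM per kb. Dync1li2 and Kif5b did not differ beyond their spread. Kif20a led the mitotic kinesins at 18.2 ± 1.24 CPM per kb and was followed by Klc1, a kinesin light chain, at 15.7 ± 2.58 CPM per kb. Among kinesins known from neurons Kif5a and Kif1a were close to 0, while Kif5c stood at 11.5 ± 2.59 CPM per kb. Kif5a, the neuronal heavy chain of conventional kinesin, lay between 0 and 1.14 CPM in the 15 libraries of 1C11NE. Kif1a, the carrier of synaptic vesicle precursors, lay between 0 and 1.28 CPM there, and neither gene passed the filter on low counts in that line.

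The first comparison asks how acrylamide affected motor transcripts in 1C11NE. No motor gene was called in ACR against PBS among the 37 that passed the filter, by edgeR's quasi-likelihood test with Benjamini-Hochberg adjustment over 12550 genes at an adjusted p below 0.05. Of all genes tested 1.18% were called, 0.462% higher and 0.717% lower. At an unadjusted p below 0.05, 0 motor genes were higher, where 5.37% of all genes were, and 2 were lower, Kif2c and Kif23, where 6.58% of all genes were. DESeq2 called 1, Kif2c, where it called 336 of all 12550 genes. All 11 mitotic kinesins passed the filter, as did 20 of the 24 transport genes and 6 of the 12 others.

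Among transport motors the differences were small. Kif5b was at 289, 267 and 314 CPM in PBS and 319, 341 and 263 CPM in ACR, so the groups overlapped. Its log2 difference was 0.09 ± 0.19 (SE), with a 95% interval from -0.29 to 0.46. Kif5c, a heavy chain enriched in neurons, was at 102, 104 and 68.5 CPM in PBS and 98.7, 63.8 and 122 CPM in ACR, again overlapping, with a log2 difference of 0.05 ± 0.34 and an interval from -0.63 to 0.72. The other fixed transport genes had log2 differences of -0.10 ± 0.19 for Kif1b, which carries mitochondria and vesicle precursors, 0.11 ± 0.19 for Kif3a, a subunit of kinesin-2, 0.01 ± 0.21 for Klc1 and 0.07 ± 0.27 for Dync1h1, the dynein heavy chain. The median log2 difference of the 20 transport genes tested was 0.01, against -0.00 for all genes. Intervals of this width do not show that the transcripts were unaffected.

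Among mitotic kinesins Kif2c, which depolymerises microtubules at centromeres, had the lowest p. It was at 46.6, 40.6 and 32.7 CPM in PBS and at 21.9, 16.1 and 28.8 CPM in ACR. Every ACR library lay below every PBS library. The log2 difference was -0.86 ± 0.21, with a 95% interval from -1.27 to -0.44 and an adjusted p of 0.060 by edgeR's quasi-likelihood test, just short of the threshold. The adjusted p was 0.017 with DESeq2, 0.012 with no filter on low counts and 0.035 with only the compared libraries. It was 0.016 without the 2 libraries that stood apart, which belong to neither group, so only filter, scaling and spread estimate changed. When single libraries were left out it ranged from 0.289 down to 0.032, the latter without ACR replicate 3. The fit without ACR replicate 3 called 104 of 12781 genes. The other settings that called Kif2c called more of all genes than the 148 of 12550 in the first fit. They called 336 of 12550 with DESeq2, 351 of 23001 with no filter and 362 of 11881 with only the compared libraries. Without the 2 libraries that stood apart 554 of 12751 genes were called.

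Kif23, whose protein forms centralspindlin with Racgap1 at the midzone of the dividing cell, was at 120.1, 120.2 and 111 CPM in PBS and at 87.0, 73.5 and 86.6 CPM in ACR. The groups did not overlap, and the log2 difference was -0.51 ± 0.21 with an adjusted p of 0.32. The other fixed mitotic kinesins were closer to 0. Kif11, which pushes spindle poles apart, differed by -0.11 ± 0.17, Kif20a, which brings the chromosomal passenger complex to the midzone, by -0.16 ± 0.16, Kif22, a chromokinesin, by 0.02 ± 0.17, and Kif4, another chromokinesin, by 0.15 ± 0.16 on the log2 scale. The median of the 11 was -0.11. Over the 37 tested genes, 0 were higher in ACR with no overlap between groups, where 10.7% of all genes were, and 4 were lower, where 10.4% of all genes were. The 4 were Kif2c, Kif23, the transport kinesin Kif13a and Kif26a.

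Summed over the 11 mitotic kinesins, libraries of PBS lay between 490.1 and 514 CPM and libraries of ACR between 412 and 456 CPM, with no overlap. A list of 15 spindle partners, proteins that act with these kinesins in the spindle, summed to between 1701 and 1719 CPM in PBS and to between 1450.0 and 1529 CPM in ACR, also with no overlap. Of the 15 partners 0 were called by edgeR's quasi-likelihood test. At an unadjusted p below 0.05, 0 were higher and 2 lower, where 5.37% and 6.58% of all genes were. The markers of cycling cells, 4 of which are also spindle partners, summed to between 1672 and 1862 CPM in PBS and between 1480 and 1648 CPM in ACR. These sums carry no test, and the part that the share of dividing cells plays in them was not tested. Kif23 and Kif2c made up much of the difference in the mitotic sum, and 3 of the 11 had a positive log2 difference. Spindle partners went both ways, with Aurka lower and Aurkb higher in each ACR library than in any PBS library. The 24 transport genes summed to between 1566 and 1717 CPM in PBS and between 1507 and 1735 CPM in ACR, with overlap.

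**Figure D1:**
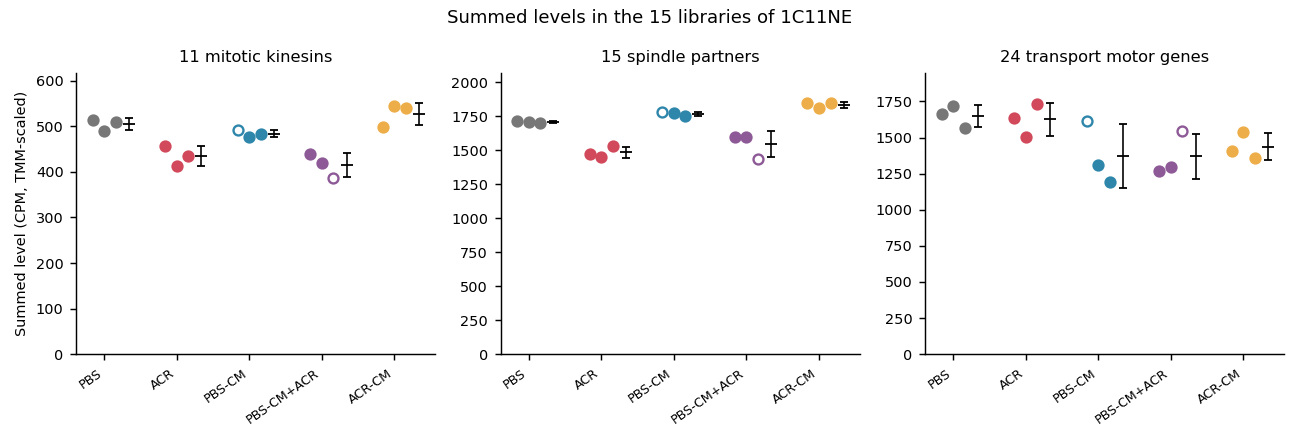
Summed level (CPM after TMM scaling) of the 11 mitotic kinesins, 15 spindle partners and 24 transport motors in each 1C11NE library, by group. Points are libraries, open points are the libraries that stood apart (replicate 1 of PBS-CM, replicate 3 of PBS-CM+ACR), and bars give the mean ± SD. The mitotic sum lay at 412 to 456 CPM in ACR and at 490.1 to 514 CPM in PBS.

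The second comparison asks what the conditioned medium of vehicle-treated BV2 cells did to 1C11NE. The labels name different base media for the lines, so conditioning and base medium cannot be told apart. A single motor gene of 37 was called in PBS-CM against PBS, Kif26a, which was lower. By the same test 4.55% of all genes were called, 2.49% higher and 2.06% lower. Kif26a, an atypical kinesin without motor activity that dampens growth factor signalling in enteric neurons, was at 14.2, 17.8 and 16.9 CPM in PBS and at 9.17, 4.26 and 2.205 CPM in PBS-CM. The groups did not overlap, and the higher PBS-CM value came from replicate 1, which stood apart. The log2 difference was -1.66 ± 0.40 with an adjusted p of 0.029 by edgeR's quasi-likelihood test. Before adjustment 2 motor genes were higher and 7 lower at p below 0.05, where 14.3% of all genes were higher and 11.4% lower. Without overlap between groups 3 were higher and 6 lower, where 12.6% and 11.5% of all genes were. The call for Kif26a was lost without PBS replicate 1 (adjusted p of 0.090), PBS replicate 2 (0.127), PBS replicate 3 (0.074), PBS-CM replicate 2 (0.163) or PBS-CM replicate 3 (0.147), and with only the compared libraries (0.051).

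Kif26a was also low in the other conditioned-medium groups, at 0.682, 1.60 and 4.04 CPM in PBS-CM+ACR and at 1.83, 4.16 and 4.27 CPM in ACR-CM. In ACR without conditioned medium it was at 11.7, 8.03 and 9.67 CPM, below every PBS library, with a log2 difference of -0.74 ± 0.38 and an adjusted p of 0.48.

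Without the 2 libraries that stood apart, 15 motor genes were called in PBS-CM against PBS, 14 lower and 1 higher. Of all genes 35.1% were called in that setting, 17.8% lower and 17.3% higher. The 2 libraries were picked because they lay beside PBS and ACR in these data, so leaving them out favoured larger differences from PBS. PBS-CM then lacked replicate 1. Of the 14 lower genes 10 were transport motors, and the median log2 difference of the transport motors tested was -0.55 against -0.01 for all genes. Kif5c was at 74.2, 40.4 and 26.9 CPM in PBS-CM, the first from replicate 1, and its log2 difference from PBS moved from -0.96 ± 0.35 with an adjusted p of 0.11 to -1.44 ± 0.27 with an adjusted p of 0.00069. Dync1h1 was at 189, 197 and 190.1 CPM in PBS and at 199, 116 and 113 CPM in PBS-CM. Its PBS-CM replicate 1 lay at the PBS level and the others lay below it. In PBS-CM+ACR it was at 111, 105 and 199 CPM, the last from the other library that stood apart. Kif7 also separated these libraries, at 369, 154 and 148 CPM in PBS-CM and at 148, 149 and 359 CPM in PBS-CM+ACR, against 236, 259.6 and 225 CPM in PBS. Its libraries that stood apart lay above the PBS libraries and the others lay below them. Kif21a, a kinesin that restrains microtubule growth, was the gene called higher, at 12.7, 12.8 and 12.8 CPM in PBS and at 18.1, 18.4 and 19.4 CPM in PBS-CM. Its log2 difference without the 2 libraries was 0.57 ± 0.21 with an adjusted p of 0.043.

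Other parts of the transport machinery were counted from fixed lists. In PBS-CM against PBS, 1 of 15 dynactin and dynein regulators was called, Dctn3, a dynactin subunit that was higher by 0.80 on the log2 scale with an adjusted p of 0.037. Of 17 cargo adaptors tested 1 was called, Mapk8ip1, a scaffold that links kinesin-1 to cargo, at 14.8, 24.3 and 11.7 CPM in PBS and at 7.25, 3.58 and 3.41 CPM in PBS-CM. The log2 difference was -1.86 with an adjusted p of 0.015. Of 8 dynein light chains tested 0 were called by edgeR's quasi-likelihood test. Their median log2 difference was 0.65, and 7 were higher at an unadjusted p below 0.05. Of all genes 4.55% were called, 2.49% higher and 2.06% lower, and 14.3% were higher at that unadjusted threshold. Without the 2 libraries 7 of the 8 light chains were called higher, 8 of the 17 adaptors were called lower with 1 higher, and 5 of the 15 dynactin and dynein regulators were called higher with 1 lower, Dctn1, the largest dynactin subunit. Over all genes 17.3% were called higher and 17.8% lower in that setting, whose choice of libraries favoured differences from PBS. Reads of the near-identical Dynlt1 genes may be split in counting, so those light chains are uncertain. The share of counts from ribosomal protein genes ran from 6.19 to 7.88% in PBS and from 6.91% in PBS-CM replicate 1 to 13.3% in PBS-CM. Its part in these differences was not tested. Microglia markers summed to between 7.02 and 12.5 CPM in PBS and between 15.01 and 17.3 CPM in PBS-CM, far under their sum in BV2. Of the 4 tested there 1 was called, Ctss, which was at 0 in the PBS and ACR libraries. Ctss passed the filter only through libraries in conditioned medium, so the direction of its call was favoured by the filter.

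**Figure D2:**
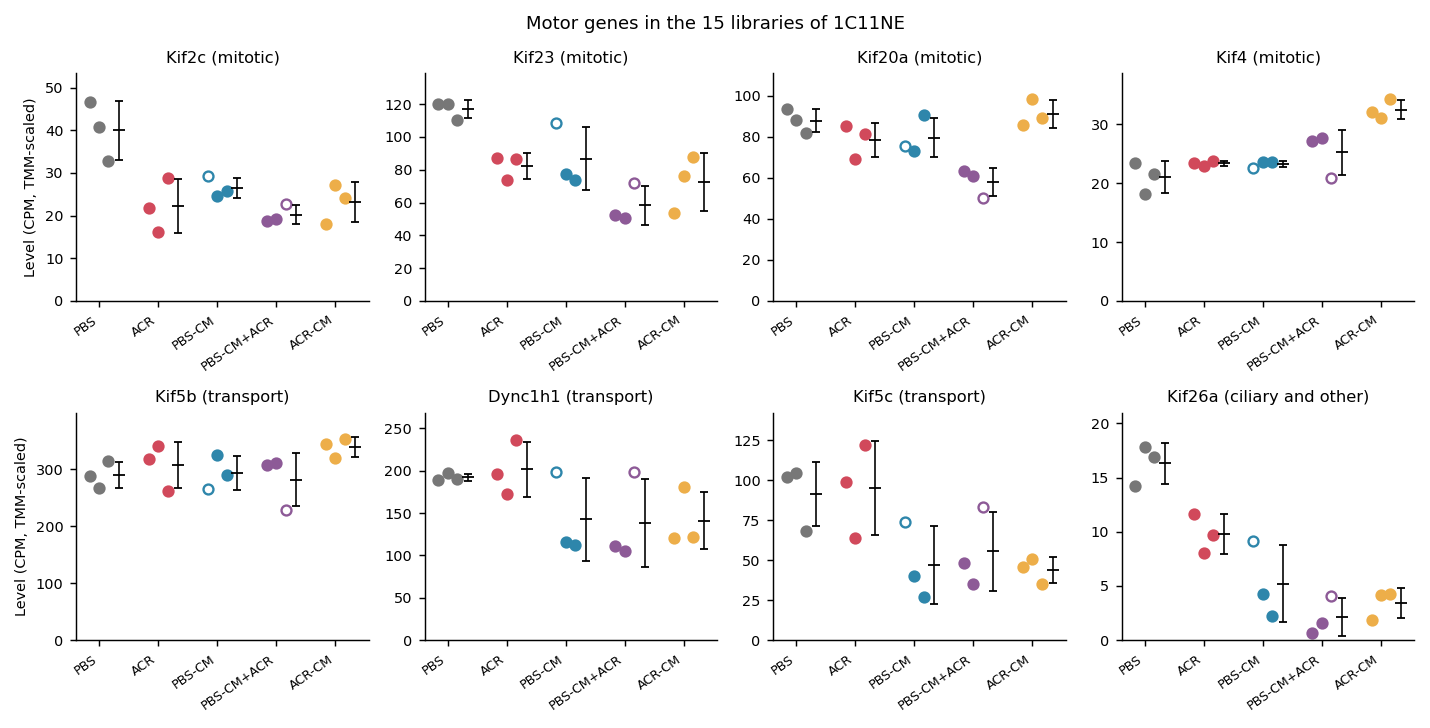
Level (CPM after TMM scaling) of 8 motor genes in each of the 15 libraries of 1C11NE, by group. Points are libraries, open points are the libraries that stood apart (replicate 1 of PBS-CM, replicate 3 of PBS-CM+ACR), and black dashes with bars give the mean ± SD. Kif26a lay at 14.2 to 17.8 CPM in PBS and at 2.205 to 9.17 CPM in PBS-CM.

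The next comparisons ask what acrylamide did within conditioned medium. In PBS-CM+ACR against PBS-CM 0 of 37 motor genes were called by edgeR's quasi-likelihood test, where 0.375% of all genes were called. Neither DESeq2 nor limma-voom nor any other setting tried called a motor gene here. At an unadjusted p below 0.05, 0 were higher, where 3.51% of all genes were, and 3 were lower, Kif20a, Kif23 and Kif26a, where 5.15% of all genes were. Kif20a was at 75.3, 72.8 and 90.4 CPM in PBS-CM and at 63.1, 60.8 and 50.1 CPM in PBS-CM+ACR. The groups did not overlap, and the log2 difference was -0.45 ± 0.16 with an adjusted p of 0.36. Kif23 was at 109, 77.4 and 73.8 CPM in PBS-CM and at 52.5, 50.5 and 71.9 CPM in PBS-CM+ACR, also without overlap, with a log2 difference of -0.57 ± 0.21 and an adjusted p of 0.40. Kif2c differed by -0.39 ± 0.22 and Kif4 by 0.12 ± 0.16. Among transport motors Kif5b differed by -0.06 ± 0.19, Kif5c by 0.23 ± 0.36 and Dync1h1 by -0.05 ± 0.27.

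Of the 37 genes 3 were lower with no overlap between groups, Kif20a, Kif23 and Kif2c, and 1 was higher, Kif15, a spindle kinesin that can stand in for Kif11. Of all genes 6.24% were lower and 4.36% higher in that way. Without the 2 libraries that stood apart 12 were lower, 6 mitotic, 5 transport and 1 other, and 6 were higher, where 25.5% of all genes were lower and 18.6% higher. In that setting 0 of 37 were called, where 0.486% of all genes were. The mitotic kinesins summed to between 476 and 492 CPM in PBS-CM and to between 387 and 439.7 CPM in PBS-CM+ACR, without overlap. Spindle partners summed to between 1749 and 1781 CPM and to between 1436 and 1600.3 CPM in the same order. The transport sum overlapped, at 1190.0 to 1616 CPM in PBS-CM and 1266 to 1546 CPM in PBS-CM+ACR. The difference between the acrylamide effect with conditioned medium and that without it was called for 0 of 37 motor genes, and 0 passed an unadjusted p below 0.05. Among all genes 0.0% were called and 2.76% passed that unadjusted threshold. For Kif2c this difference was 0.47 ± 0.31 on the log2 scale, with an interval from -0.13 to 1.07.

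Medium from acrylamide-treated BV2 cells was compared with medium from vehicle-treated ones. In ACR-CM against PBS-CM 0 of 37 motor genes were called by edgeR's quasi-likelihood test and 0 by DESeq2, where edgeR called 0.924% of all genes. Before adjustment 1 was higher and 0 were lower at p below 0.05, where 5.66% of all genes were higher and 7.2% lower. It was Kif4, at 22.6, 23.5 and 23.7 CPM in PBS-CM and at 32.1, 31.1 and 34.4 CPM in ACR-CM. The groups did not overlap, and the log2 difference was 0.48 ± 0.15 with an adjusted p of 0.18. In all 7 of the 37 were higher with no overlap between groups, 4 of them mitotic (Kif4, Kif20b, Kif11 and Kif15), where 10.1% of all genes were, and 0 were lower, where 8.36% of all genes were. Without the 2 libraries that stood apart 10 were higher and 1 lower, where 15.1% and 15.8% of all genes were, and 0 were called, where 1.36% of all genes were. The median log2 difference of the 20 transport genes tested moved from 0.00 to 0.18 and that of the mitotic kinesins from 0.19 to 0.16. The mitotic sum in ACR-CM was 498 to 544 CPM, above each PBS-CM library.

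Acrylamide given to BV2 before conditioning was also set against acrylamide added to finished medium. In ACR-CM against PBS-CM+ACR 0 of 37 motor genes were called by edgeR's quasi-likelihood test, where 0.0159% of all genes were called. At an unadjusted p below 0.05, 4 were higher, Kif20a, Kif20b, Kif3a and Kif4, and 0 were lower, where 2.92% of all genes were higher and 2.57% lower. Without overlap between groups 7 were higher and 0 lower, where 6.65% and 3.9% of all genes were. Leaving out the 2 libraries that stood apart gave 14 higher and 1 lower, where 12.3% and 9.45% of all genes were, and 0 called, where 0.0314% of all genes were. Kif20a was at 85.6, 98.4 and 89.0 CPM in ACR-CM, above each PBS-CM+ACR library. Its log2 difference was 0.65 ± 0.16 with an adjusted p of 0.42. DESeq2 called it alone among the motor genes, with an adjusted p of 0.046, where it called 11 of all 12550 genes. The mitotic sums of these groups did not overlap. This comparison and the last share the ACR-CM libraries, so they are not independent.

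**Figure D3:**
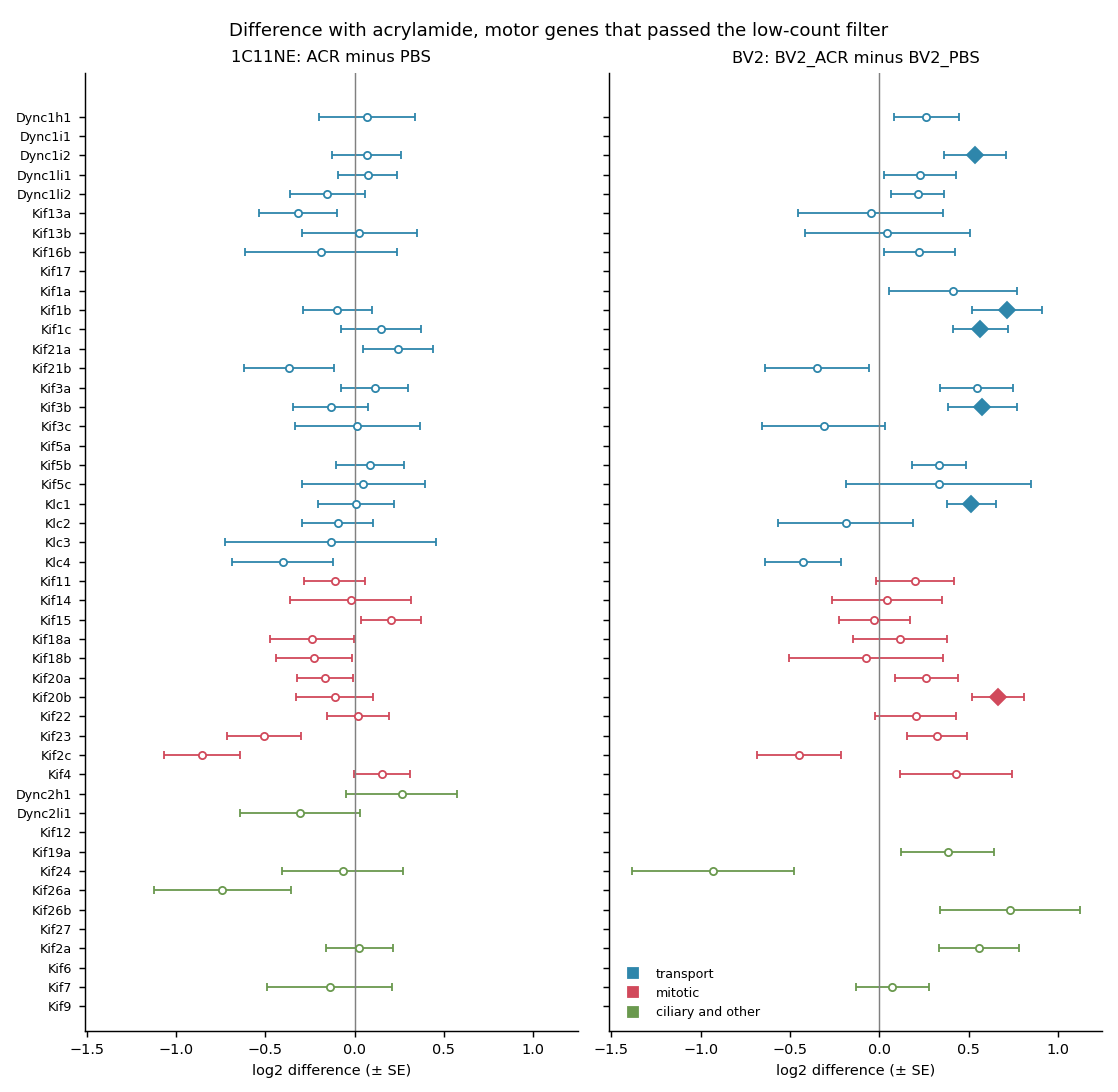
Log2 difference ± SE with acrylamide for each motor gene tested, ACR against PBS in 1C11NE and BV2_ACR against BV2_PBS in BV2, ordered by class. Diamonds mark genes called at an adjusted p below 0.05, of which there were 0 in 1C11NE and 6 in BV2.

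In BV2 acrylamide was followed by higher levels of 6 motor genes of 35 tested, and 0 were lower, by edgeR's quasi-likelihood test with Benjamini-Hochberg adjustment over 10890 genes. Of all genes 16.5% were called, 7.17% higher and 9.33% lower. Of the 6, 5 were transport motors and 1 was mitotic. At an unadjusted p below 0.05, 9 were higher and 0 lower, where 14.6% and 15.2% of all genes were. The median log2 difference of the 35 was 0.23, against 0.03 for all genes. Of the 6 calls 1 remained without BV2_ACR replicate 2, 2 remained without BV2_PBS replicate 1 and 2 without BV2_PBS replicate 2.

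Kif20b, a kinesin of cytokinesis that also acts in growing neurons, had the lowest p. It was at 34.2, 36.3 and 30.9 CPM in BV2_PBS and at 48.6, 59.5 and 52.6 CPM in BV2_ACR. The groups did not overlap. The log2 difference was 0.66 ± 0.15 with an adjusted p of 0.0040, and the call held in 6 of 6 fits that each left out a library. The other mitotic kinesins were not called, and their values went either way, from 0.43 ± 0.31 for Kif4 to -0.45 ± 0.24 for Kif2c.

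The transport motors that rose belonged to several cargo systems. Klc1, the light chain that couples conventional kinesin to cargo, was at 48.7, 45.1 and 48.2 CPM in BV2_PBS and at 62.5, 78.1 and 62.9 CPM in BV2_ACR, a log2 difference of 0.52 ± 0.14 with an adjusted p of 0.015. Its groups did not overlap, and the call held in 3 of 6 fits that left out a library. Kif1c, a kinesin-3 that moves vesicles, was at 28.6, 24.7 and 26.2 CPM and then at 39.1, 42.1 and 36.8 CPM, a log2 difference of 0.57 ± 0.15 with an adjusted p of 0.016 and a call in 4 of 6 such fits. Kif1b was at 14.1, 17.3 and 19.6 CPM in BV2_PBS and at 25.4, 34.9 and 23.7 CPM in BV2_ACR, also without overlap. Its log2 difference was 0.71 ± 0.20 with an adjusted p of 0.017, and the call held in 4 of 6 fits.

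The other called genes had adjusted p values closer to the threshold. Dync1i2, the intermediate chain that joins dynein to dynactin, was at 18.3, 19.6 and 17.9 CPM and then at 24.9, 25.3 and 30.6 CPM, a log2 difference of 0.54 ± 0.17 with an adjusted p of 0.040. Kif3b, a subunit of the kinesin-2 motor, was at 17.2, 17.5 and 19.4 CPM and then at 28.1, 32.4 and 20.6 CPM, a log2 difference of 0.58 ± 0.19 with an adjusted p of 0.045. Both had groups without overlap, and both calls held in 1 of 6 fits that left out a library. Kif3a, the partner of Kif3b in kinesin-2, differed by 0.54 ± 0.20 with an adjusted p of 0.073, and Kif5b by 0.33 ± 0.15 with an adjusted p of 0.15. In all 10 of the 35 were higher with no overlap, where 16.6% of all genes were, and 0 were lower, where 16.8% were. The transport genes summed to between 358 and 394 CPM in BV2_PBS and to between 454 and 514 CPM in BV2_ACR, and the mitotic kinesins to between 184 and 213 CPM and between 220.0 and 260.3 CPM, with no test of either sum.

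Around these motors 1 of 15 cargo adaptors was called higher, Kidins220, a neurotrophin receptor scaffold carried by kinesin-1, by 0.69 on the log2 scale. These counts stand beside 7.17% called higher and 9.33% lower over all genes. Of 15 dynactin and dynein regulators 1 was called higher, Nde1, which tunes dynein in neural progenitors and at mitosis, by 0.80. Of 8 dynein light chains 1 was called lower, Dynll1, with a log2 difference of -0.66. Of 15 spindle partners 1 was called higher, Tpx2, a spindle assembly factor, by 0.47. Ribosomal protein genes took 18.9 to 21.3% of counts in BV2_PBS and 13.0 to 15.8% in BV2_ACR, without overlap, and their part in the rise of motor genes was not tested. Cycling markers summed to between 1084 and 1148 CPM in BV2_PBS and between 1019 and 1120.1 CPM in BV2_ACR. Among microglia markers Itgam was called higher, and Tyrobp and Fcer1g were called lower, with log2 differences of 1.06, -0.74 and -0.49.

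**Figure D4:**
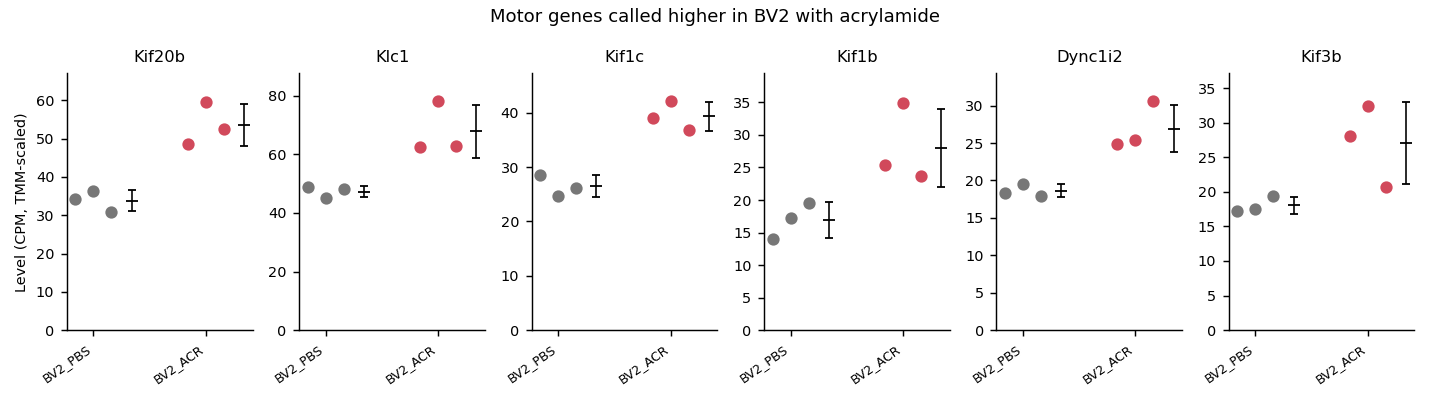
Level (CPM after TMM scaling within BV2) of the 6 motor genes called in BV2_ACR against BV2_PBS, by library. Points are libraries and black dashes with bars give the mean ± SD of 3. In each panel the BV2_ACR libraries lay above the BV2_PBS libraries, as for Kif20b at 48.6 to 59.5 against 30.9 to 36.3 CPM.

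A motor gene called in BV2 and not in 1C11NE is not thereby shown to differ between the lines, so that difference was tested in a joint fit of 13569 genes. It was called for 0 of 40 motor genes tested, where 0.567% of all genes were called. At an unadjusted p below 0.05 the acrylamide difference was higher in BV2 than in 1C11NE for 5 genes, Kif1b, Kif20b, Kif23, Kif26b and Kif3b. It was lower for 0, where 6.99% of all genes were higher and 7.84% lower. Kif26b had not passed the filter in 1C11NE and entered the joint fit through BV2. It had 11, 10 and 7 counts in PBS and 1, 3 and 3 in ACR. The difference was 0.82 ± 0.28 for Kif1b with an adjusted p of 0.15, 0.78 ± 0.27 for Kif20b with 0.17 and 0.83 ± 0.29 for Kif23 with 0.17. Without the 2 libraries that stood apart these 3 genes were called, when 4.94% of all genes were, with adjusted p of 0.037, 0.039 and 0.041. Those 2 libraries belong to none of the groups compared, so only the filter, scaling and spread estimate changed. Using only the compared libraries 1 was called, Kif23, with an adjusted p of 0.047, when 457 of 13139 genes were.

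Between the vehicle groups of the lines motor genes were called about as often as all genes, at 77.5% against 79.2%. Line, strain and base medium cannot be told apart in this comparison. In BV2_PBS against PBS 27 of 40 motor genes were lower and 4 were higher by edgeR's quasi-likelihood test in the joint fit, where 43.1% of all genes were called lower and 36.1% higher. The median log2 difference of the 40 was -1.23, against -0.25 for all genes. With DESeq2's size factors that of all genes was -0.18.

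Of the transport motors tested 14 were lower and 2 higher, with a median log2 difference of -1.42. On the common scale Kif5c was at 91.2, 94.4 and 60.9 CPM in PBS and at 0.860, 3.24 and 2.48 CPM in BV2_PBS, a log2 difference of -5.23 ± 0.49 with an adjusted p of 3.9e-09. Kif1b was at 259.6, 286 and 254 CPM in PBS and at 18.1, 21.7 and 25.4 CPM in BV2_PBS, a difference of -3.61 ± 0.21 with an adjusted p of 7.3e-13. Neither gene had overlapping groups. Kif21a had 230 counts over the PBS libraries and 4 over BV2_PBS. Relative to total counts, without TMM factors, this was a ratio of 0.0223 with a 95% interval from 0.00602 to 0.0578 that covers counting error only. On the common scale its means were 11.4 CPM in PBS and 0.391 CPM in BV2_PBS. Kif13b, a kinesin-3 of vesicle traffic, differed by -3.52 ± 0.42, Kif5b by -1.67 ± 0.18 and Dync1h1 by -1.41 ± 0.27. Klc1 was close in both lines, with a difference of -0.08 ± 0.19 and an interval from -0.46 to 0.30.

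The dynein-2 genes, which drive return transport in cilia, were also lower in BV2. Dync2li1 had 2 counts over the BV2_PBS libraries and 126 over PBS. Relative to total counts, without TMM factors, this was a ratio of 0.0203 with an interval from 0.00244 to 0.0750 for counting error only. On the common scale its means were 0.191 CPM in BV2_PBS and 6.31 CPM in PBS. Dync2h1 differed by -3.22 ± 0.57. Kif7 differed by -2.17 ± 0.36. The 4 higher genes were Kif19a, a kinesin that limits ciliary length, by 4.87 ± 0.44, Kif1a by 3.21 ± 0.52, the light chain gene Klc4 by 2.49 ± 0.25 and Kif26b by 1.74 ± 0.50. Kif19a was at 0.267, 0.260 and 0.407 CPM in PBS and at 8.89, 11.03 and 8.54 CPM in BV2_PBS. The call for Kif26b was lost without BV2_PBS replicate 3, with an adjusted p of 0.058. Kif19a, Kif1a and Kif26b did not pass the filter in 1C11NE and entered the joint fit through BV2, where they were high. Dync2h1, Dync2li1, Kif21a and Kif26a did not pass it in BV2 and entered through 1C11NE. The direction of these calls was therefore favoured by the filter.

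Of the 11 mitotic kinesins 8 were lower in BV2_PBS and 0 were higher. Kif4 differed by -1.45 ± 0.22, Kif20a by -1.22 ± 0.16, Kif23 by -1.01 ± 0.21 and Kif11 by -0.85 ± 0.19. Kif15, Kif18a and Kif22 were not called, and Kif15 was at 19.8, 21.8 and 24.6 CPM in PBS and at 27.5, 25.6 and 23.4 CPM in BV2_PBS. The order of levels within BV2_PBS differed from that in 1C11NE, since Klc1 led at 14.9 ± 0.80 CPM per kb, Klc4 followed at 13.5 ± 4.55, Kif7 stood at 10.46 ± 3.04 and Kif5b at 10.2 ± 0.98. Neighbours in that order lay within their SDs of each other.

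**Figure D5:**
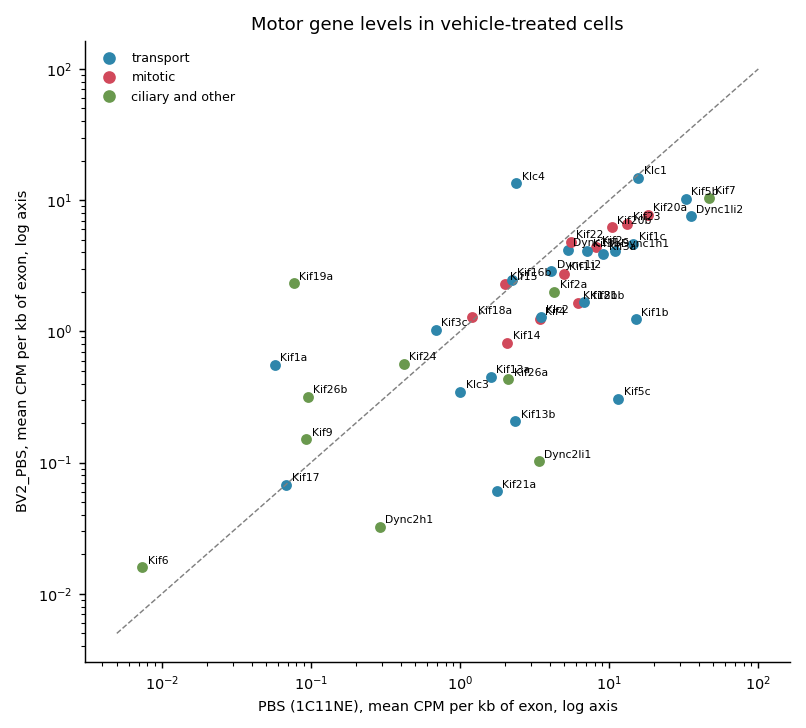
Mean level of 43 motor genes in the vehicle groups, PBS on the x axis and BV2_PBS on the y axis, in CPM per kb of exon on log axes and on a scale common to both lines. The dashed line marks equal levels, most points lie under it, and 4 genes at 0 in BV2_PBS (Dync1i1, Kif12, Kif27 and Kif5a) are not drawn.

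Some members carry a limit from counting. Whether strand was used is not given, so reads of Kif20a and Cdc23, Kif2a and Dimt1, Kif4 and Pdzd11, Kif3c and 1110002L01Rik, and Klc3 and Ercc2, whose exons overlap in the GENCODE vM21 annotation, cannot be told apart. Of the 47 genes 10 did not pass the filter in 1C11NE (Dync1i1, Kif12, Kif17, Kif19a, Kif1a, Kif26b, Kif27, Kif5a, Kif6 and Kif9). In BV2 12 did not, among them Kif5a, Kif21a, Kif26a and both dynein-2 genes. Their treatment differences were not tested within those lines, though those that passed the joint filter entered the test of the difference between lines. Kif26b, for example, was at 1.64, 1.44 and 1.60 CPM in PBS and at 0.249, 0.602 and 0.708 CPM in ACR, and these groups did not overlap.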

How the data were processed

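Poly(A) RNA was captured from 21 libraries, fragmented and sequenced on an Ion GeneStudio S5, per the labels' protocols. The authors deposited raw counts for each gene symbol, which are whole and not normalised. Bowtie2 2.2.5 is named by the submitters' processing notes. For the genome build, annotation, counting program and strand use, no information was given in the sources used here. All per-sample columns were used.

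From these counts libraries were scaled by TMM and filtered with filterByExpr. The quasi-likelihood test of edgeR 4.0.16 (R 4.3.3, limma 3.58.1) with a robust prior was run on the 15 libraries of 1C11NE (12550 genes, 37 motor genes), the 6 of BV2 (10890 genes, 35) and all 21 (13569 genes, 40). Benjamini-Hochberg adjustment was over all genes tested, with calls at an adjusted p below 0.05. The fits were tested on simulated data. Alternatives were DESeq2 1.42.0, its size factors, limma-voom, other filters, only the compared libraries, a replicate block, and leaving out libraries. Depth was 2762287 to 7391991 counts. Ratios of counts were taken relative to total counts without TMM factors, and their intervals cover counting error only.

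Genes were named by rule: each called motor gene (the 12 largest where more were called), 14 fixed transport and mitotic genes, and up to 6 called genes per further list. Genes named for an unadjusted p, groups without overlap or leading levels, and Dync1h1, Kif7 and Kif21a in conditioned medium, were named after their values were seen. The members and lists were chosen with earlier results of these data known.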

Additional observations from a re-analysis of the deposited data

How the results depend on the processing

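No called motor gene changed direction under any setting tried. For ACR against PBS the count of called motor genes went from 0 to 1 with no filter, with DESeq2, with only the compared libraries and without the 2 libraries that stood apart, and ranged from 0 to 1 when single libraries were left out, the 1 without ACR replicate 3. For PBS-CM against PBS the count of 1 became 3 with no filter, 0 with only the compared libraries and 15 without both libraries that stood apart. It ranged from 0 to 10 when single libraries were left out, the 10 without PBS-CM replicate 1, when 3233 of 12660 genes were called. For ACR-CM against PBS-CM+ACR it became 1 with DESeq2. For BV2_ACR against BV2_PBS it ranged from 1 to 5 when single libraries were left out, against 6, with 1 without BV2_ACR replicate 2 and 2 without BV2_PBS replicate 1 and 2 without BV2_PBS replicate 2. For the difference between lines it became 1 with only the compared libraries and 3 without both libraries that stood apart. For BV2_PBS against PBS it stayed between 29 and 32. The causes were not tested.

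Same-numbered replicates correlated between -0.55 and 0.44, and 9 of 33 such correlations passed 0.1, so the numbers were not taken to pair the libraries. With the replicate number as a block the count was 0 for PBS-CM against PBS, where Kif26a had an adjusted p of 0.066, and it changed no other count of calls by over 1.5 times. Depth limits the genes with few counts, and 3 libraries a group limit what the tests could call.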
